A study of Mus musculus with 37 samples.

Results

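The genes described here handle glucose uptake and fuel choice. They are the transporters *Slc2a1* and *Slc2a4*, the hexokinases *Hk1* and *Hk2*, the regulatory enzyme *Pfkfb3*, the pyruvate dehydrogenase kinases *Pdk2* and *Pdk4*, the lactate dehydrogenase subunits *Ldha* and *Ldhb*, and *Pck1*. They were chosen by symbol, 10 of the 24657 named genes on the array, and the brightest probe set stood for each gene. All 10 were found, 9 with a single probe set. *Slc2a1* had 2, and its other probe set, with a mean of 6.80, lay below background.

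The data are expression arrays of brown adipose tissue (BAT) from the BXD mice, inbred strains whose parent strains were C57BL/6J and DBA/2J. There were 35 BXD strains and both parents, with 1 array per strain from RNA combined evenly from about 5 mice, so the spread between mice of a strain was not measured. All mice were males of 29 weeks on chow diet, and tissue was taken after perfusion at the end of a fast from 6 pm to 9 am. Strain differences are therefore differences between pools in the fasted state.

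Brown fat burns both lipid and glucose to make heat, and it takes up glucose in response to insulin and to sympathetic stimulation. Glucose enters through transporters and is trapped by hexokinase. Pyruvate is then oxidised, if pyruvate dehydrogenase is not shut off by its kinases, or is turned to lactate. In fasting, fat tissue takes up less glucose, burns more fatty acid, and uses *Pck1* to make the glycerol backbone on which fatty acids are stored again.

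Arrays came rescaled, each with mean 8 and standard deviation (SD) 2, and all values below are in these rescaled units. A difference of 1 unit equals a 2-fold change only if the SD was 2 on a log2 scale before rescaling, so folds are nominal. Background was set by 1128 olfactory receptor probe sets, 95% of which averaged below 7.94. All 10 genes were above this limit in each of the 35 BXD strains. The median SD across strains, over the 19436 probe sets above background, was 0.192, and 4 of the 10 genes exceeded it: *Slc2a4*, *Hk1*, *Hk2* and *Pfkfb3*.

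**Figure D1:**
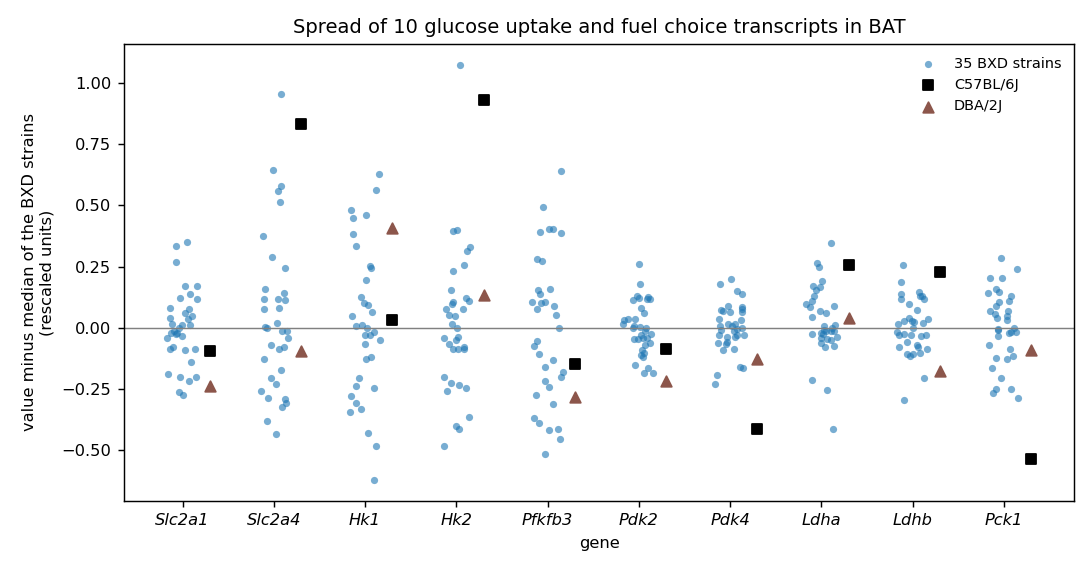
Values of the 10 genes in BAT, each minus the median of the 35 BXD strains (vertical axis, rescaled units), with BXD strains as circles, C57BL/6J as squares and DBA/2J as triangles. *Hk2* had a range of 1.56 and *Pdk4* one of 0.43, and C57BL/6J lay below all 35 BXD strains for *Pdk4* and *Pck1*.

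*Slc2a4* encodes the transporter that insulin brings to the surface of fat and muscle cells. It averaged 12.30 ± 0.32 (SD, n = 35), from 11.82 in BXD80 at the low end through a median of 12.26 to 13.21 in BXD87. This range of 1.39 is nominally 2.62-fold. BXD68 came next at 12.90, so BXD87 stood apart at the top. C57BL/6J had 13.09, with 1 BXD strain above it, and DBA/2J had 12.16. The parental difference, DBA/2J minus C57BL/6J, was -0.93, and 95% of all probe sets differed by less than 0.77 between these 2 arrays. With 1 array per parent it has no replicate check.

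*Hk2* encodes the insulin-regulated hexokinase of fat and muscle, which phosphorylates glucose once it has entered. Its lowest value was 10.98 in BXD90, its median 11.46 and its highest 12.54 in BXD87, with a mean of 11.48 ± 0.29. BXD101 was next highest at 11.87, so the top of the range rested on BXD87. C57BL/6J, at 12.39, again had 1 BXD strain above it, while DBA/2J, at 11.60, lay inside their range. The parental difference was -0.79.

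*Slc2a4* and *Hk2* rose and fell together across strains. Strains on the same side of both medians numbered 23, and 10 were on opposite sides. Pearson's r was 0.84 (n = 35, 95% interval 0.71 to 0.92) and Spearman's rho was 0.78, both with a permutation p of 1e-05, the smallest that 100000 permutations can give. Without BXD68 and BXD87, the strains farthest from the median of *Slc2a4*, r was 0.77. In the limma fit over all transcripts the adjusted p was 9.06e-07 with *Slc2a4* as the covariate and 4.76e-06 with *Hk2* as the covariate. The pair passed the 0.05 threshold in both directions without any single strain, and r without BXD87 was 0.79.

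*Pdk4* encodes the kinase that shuts off pyruvate dehydrogenase in fasting and so spares glucose. It varied little, from 15.20 in BXD68 through a median of 15.42 to 15.62 in BXD83. The highest value of any probe set was 16.47. Whether a limit at the top of the scale narrowed the spread of *Pdk4* or *Pck1* was not tested. C57BL/6J, at 15.01, lay below all 35 BXD strains, and DBA/2J, at 15.30, below 31 of them. Strains with much *Slc2a4* tended to have less *Pdk4*: BXD68, BXD101 and BXD87 ranked 2, 4 and 1 for *Slc2a4* and 35, 34 and 33 for *Pdk4*. BXD45 and BXD70, which ranked 3 and 5 for *Slc2a4*, ranked 24 and 14 for *Pdk4*. The r of this pair was -0.68 (n = 35, 95% interval -0.83 to -0.45, permutation p = 2e-05) and rho was -0.63 (permutation p = 7e-05). It was -0.58 without BXD68 and BXD87. The limma adjusted p was 0.042 with *Slc2a4* and 0.0204 with *Pdk4* as the covariate.

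The call of *Slc2a4* with *Pdk4* was close to the threshold. It was lost when any of 15 strains was left out, with *Slc2a4* as the covariate. The adjusted p was then 0.128 without BXD68, 0.121 without BXD87, 0.107 without BXD101, 0.0718 without BXD62 and 0.067 without BXD80. It was 0.0602 without BXD96, 0.0596 without BXD56, 0.0595 without BXD66, 0.0593 without BXD71 and 0.0582 without BXD69. It was 0.0536 without BXD64, 0.0531 without BXD43, 0.052 without BXD50, 0.0516 without BXD103 and 0.0505 without BXD84. The direction held in each of these, and the r nearest 0 was -0.64, without BXD68. The call was also lost with the brown fat mean as a second covariate (adjusted p = 0.0501, r = -0.68), after centring each array on its median (adjusted p = 0.0798, r = -0.63), on ranks (adjusted p = 0.0947) and without both BXD68 and BXD87 (adjusted p = 0.372).

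**Figure D2:**
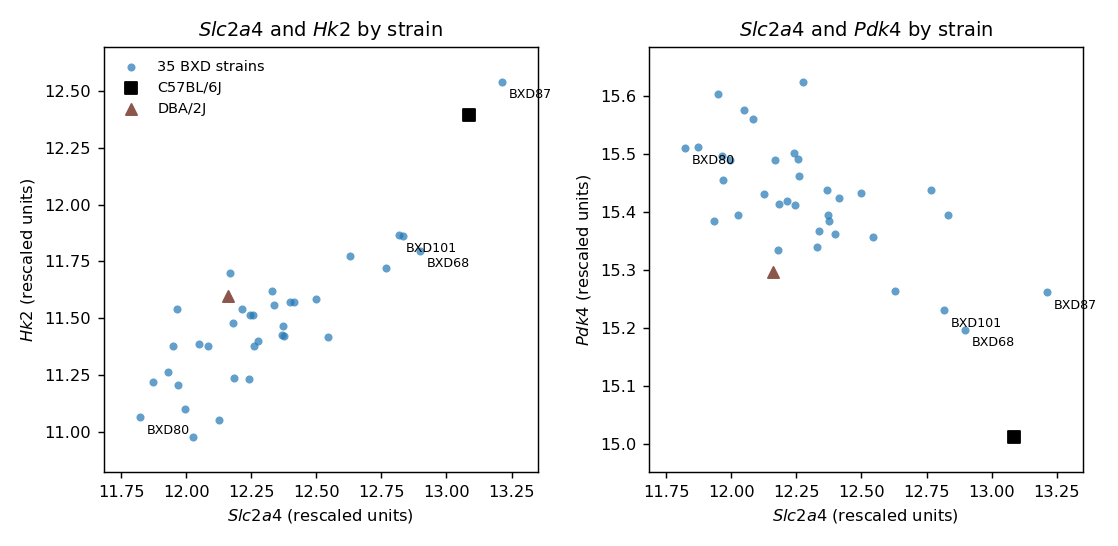
*Hk2* (left, vertical axis) and *Pdk4* (right, vertical axis) against *Slc2a4* (horizontal axis), all in rescaled units, with 1 point per strain, C57BL/6J as a square and DBA/2J as a triangle. *Hk2* rose with *Slc2a4* (r = 0.84) and *Pdk4* fell (r = -0.68) over the 35 BXD strains, and C57BL/6J lay at the high end of *Slc2a4* in both panels.

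Of the other 9 genes, 2 passed the limma threshold with *Slc2a4* as the covariate, beside 175 of 41154 transcripts in all (0.425%). Of the 175, 129 rose with *Slc2a4* and 46 fell. Among the named genes with the largest r were *Thrsp*, which promotes lipogenesis, *Acly*, which makes cytosolic acetyl-CoA, *Hk2*, and the desaturase gene *Scd2*. Their r ran from 0.84 to 0.86 and their rho from 0.73 to 0.84. *Acly* spanned 12.51 in BXD85 through a median of 13.61 to 15.14 in BXD87, with 15.15 in C57BL/6J. The 5 with the smallest r were the imprinted gene *Peg3*, *Cpt1a*, which brings fatty acids to the mitochondria for oxidation, *Cyp4b1*, *Ppfibp1* and *Trafd1*, at r from -0.75 to -0.70 and adjusted p of at most 0.0029. *Cpt1a* was lowest in BXD87 at 10.06, where *Slc2a4* was highest, and highest in BXD80 at 11.41, where *Slc2a4* was lowest.

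Of 108 genes on the pathway lists, 15 rose with *Slc2a4* past the threshold and 4 fell, beside 0.425% of all transcripts that passed. Some lipogenic and some glycogen genes were among those that rose, and the others of both lists did not pass. All 8 lipogenesis genes had a positive r, with a median of 0.60, and 4 passed: *Acly*, *Srebf1* (r = 0.73), *Pnpla3* (r = 0.72) and *Acaca* (r = 0.64). The median r over all transcripts was -0.0038. *Scd1*, which encodes a stearoyl-CoA desaturase, did not pass, at r = 0.07 and an adjusted p of 0.977. Of 10 glycogen genes 4 passed, all positive: *Pygl*, *Gbe1*, and the glycogen-targeting subunits *Ppp1r3b* and *Ppp1r3c*, with r from 0.58 to 0.63. Without BXD68 and BXD87, r ran from 0.41 to 0.56 for these 4 and from 0.57 to 0.82 for the 4 lipogenesis genes. *Mlxipl*, a transcription factor that responds to glucose, passed at r = 0.72 (adjusted p = 0.000731). Of the 8 genes of the insulin signal to glucose uptake it was the only 1 that rose past the threshold. Their median r was -0.14, and 3 of 8 had a positive r.

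Of 17 glycolytic enzymes 16 had a positive r and 2 passed, *Pkm* (r = 0.69) and *Gpi1* (r = 0.66). All 10 genes of the pyruvate dehydrogenase complex and its regulators had a positive r, and *Pdhb* (r = 0.65) and *Dlat* (r = 0.59), which encode parts of the complex itself, passed. Without BXD68 and BXD87, r was 0.63 for *Pkm*, 0.57 for *Gpi1*, 0.54 for *Pdhb* and 0.45 for *Dlat*. The fructose transporter gene *Slc2a5* had r = 0.83 and ran from 8.08 in BXD85 to 11.24 in BXD87. It was the only 1 of 9 other glucose transporters that passed, and their median r was 0.12. The pyruvate carboxylase gene *Pcx* rose as well (r = 0.60, adjusted p = 0.0474). Of 8 genes of gluconeogenesis and glycerol phosphate only this 1 passed, and their median r was 0.20. At an unadjusted p under 0.05 there were 9 of 17 glycolytic, 6 of 10 pyruvate dehydrogenase, 7 of 8 lipogenesis and 7 of 10 glycogen genes, beside 3617 of 41154 transcripts (8.79%).

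In the other direction, 3 of 7 PPAR targets of the fasted state fell as *Slc2a4* rose, *Cpt1a* (r = -0.74), *Acot2* (r = -0.68) and *Angptl4* (r = -0.67), and 0 rose past the threshold by limma. At an unadjusted p under 0.05 the count was 4 of 7, the fourth being *Plin5* at r = -0.37, beside the same 8.79% of all transcripts. *Txnip*, which restrains glucose uptake, also fell (r = -0.69, adjusted p = 0.00696), 1 of 8 genes of the insulin signal to glucose uptake. *Txnip* was lowest in BXD87 at 14.31 and highest in BXD83 at 14.90, and C57BL/6J had 13.78. The *Slc2a4* count leaned on a few strains: it was 96 without BXD87, 107 without BXD45, 112 without BXD68 and 113 without BXD101.

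With *Hk2* as the covariate, 1 of the other 9 genes passed, *Slc2a4*, beside 33 of 41154 transcripts (0.0802%), 29 rising and 4 falling. After *Slc2a4*, the named genes with the largest r were *Sbk1*, *Mid1ip1*, *Hephl1* and *Thrsp*, at r from 0.71 to 0.73. *Hephl1* averaged 7.34, below background, and its rho with *Hk2* was 0.37. All 4 that fell were *Svep1* (r = -0.75), *Cd302* (r = -0.73), *Cpt1a* (r = -0.65) and *Angptl4* (r = -0.64). From the lipogenesis list *Acly*, *Srebf1* and *Pnpla3* rose with *Hk2*, 3 of 8, and from the glycogen list *Ppp1r3c*, 1 of 10. *Slc2a5* (r = 0.62, adjusted p = 0.0417), 1 of 9 other glucose transporters, rose too. So did *Mlxipl* (r = 0.71, adjusted p = 0.00691), 1 of 8 genes of the insulin signal to glucose uptake. The *Hk2* count rested on BXD87, and fell to 1 without it. It was 15 without BXD45, 15 without BXD68, 15 without BXD101 and 17 without BXD84.

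*Slc2a1* encodes the transporter of basal, insulin-independent uptake, found in most cells. Its values ran from 9.55 in BXD62 through a median of 9.82 to 10.17 in BXD70, with 9.73 in C57BL/6J and 9.59 in DBA/2J. BXD69 was close to the top at 10.16, and the SD was 0.15. *Slc2a1* passed with none of the other 9 genes by limma, beside 1 of 41153 transcripts (0.00243%) and 3037 at an unadjusted p under 0.05. The passing transcript was the predicted gene *Gm19624* (r = -0.75, rho = -0.60, adjusted p = 0.0114), and it no longer passed without BXD69, BXD81 or BXD95, when the count was 0. The count was 2 without BXD61.

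BXD70, the strain with the highest *Slc2a1*, also had the highest mean of 12 liver genes, 11.46, against 8.11 in the next BXD strain and a median of 7.26. DBA/2J had a liver mean of 10.08 and an *Slc2a1* below that of 33 BXD strains. Their brightest gene was *Ttr*, and 3 of the 12 averaged above background. All 12 had an unadjusted p under 0.05 with *Slc2a1*, with r from 0.32 to 0.46, beside 7.38% of all transcripts, but 0 passed after adjustment by limma. Their median r with *Slc2a1* was 0.38, and 0.02 without BXD70, when r ran from -0.19 to 0.31 and 7 of 12 were positive. With *Hk1* it was 0.03, and 0.35 without BXD70. Without BXD70 the range of *Slc2a1* was 0.61 in place of 0.63, and its count was again 1. The part of liver RNA in the values of *Slc2a1* or *Hk1* was not tested. In whole tissue, more cells of a type and more RNA per cell cannot be told apart.

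*Hk1* encodes the hexokinase bound to mitochondria in most cell types. It ran from 8.69 in BXD43 through a median of 9.31 to 9.94 in BXD66, a nominal 2.38-fold, with an SD of 0.31. C57BL/6J, at 9.34, was near the middle and DBA/2J, at 9.72, had 5 BXD strains above it. *Hk1* did not follow the other hexokinase: r of *Hk1* and *Hk2* was -0.07. None of the other 9 genes passed with *Hk1* by limma, although 537 of 41154 transcripts did (1.3%), 289 rising and 248 falling, and 5888 had an unadjusted p under 0.05.

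The transcripts that rose with *Hk1* were led by *Dennd5a*, the actin-binding *Cald1*, the calcium release channel gene *Ryr2*, and *Vcl* and *Msn*, which tie actin to the membrane. Their r ran from 0.75 to 0.80, and from 0.71 to 0.80 without the 2 strains farthest from the median. Those that fell were led by *Stt3b*, *Dennd2d*, *Irak1bp1*, *Sox6* and *Amz2*, at r from -0.77 to -0.70. *Cald1* and *Vcl* were highest in BXD66, where *Hk1* was highest, at 9.66 and 11.80. *Pdk1* (r = -0.56), the pyruvate dehydrogenase phosphatase gene *Pdp2* (r = -0.55), *Irs1* (r = -0.61) and *Tbc1d4* (r = -0.57), the last 2 from the insulin signal to glucose uptake, fell as *Hk1* rose. So did *Egln3* (r = -0.58), of the HIF targets, while the glycogen phosphorylase gene *Pygb* rose (r = 0.55). Of 108 genes on the pathway lists, these 5 that fell and 1 that rose were all that passed, beside 1.3% of all transcripts. *Adm*, also of the HIF targets, had r = 0.52 and *Pdk3* had r = 0.40, and neither passed.

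Of 77 cell type markers, 4 rose with *Hk1* and 1 fell, beside 1.3% of all transcripts that passed. At an unadjusted p under 0.05 there were 4 of 6 endothelial, 4 of 6 macrophage, 3 of 6 white fat and 1 of 10 brown fat genes. The share over all transcripts was 14.31%. All 6 endothelial genes had a positive r, with a median of 0.41, and 2 passed, *Pecam1* (r = 0.64) and *Cdh5* (r = 0.63). The mean of the list ran from 11.45 in BXD56 to 12.17 in BXD85, its brightest gene was *Cdh5*, and 6 of 6 were above background. The macrophage marker *Cd68* rose with *Hk1* (r = 0.57), 1 of 6 on its list, whose median r was 0.37. The mean of that list ran from 8.37 in BXD48 to 9.88 in BXD61, with 4 of 6 above background and *Cd68* the brightest. Of the white fat list *Lep* rose (r = 0.68) and *Retn* fell (r = -0.57), among 6. *Lep* ran from 9.08 in BXD43, the strain lowest for *Hk1*, to 13.38 in BXD61. The white fat mean likewise ran from 8.92 in BXD43 to 10.39 in BXD61, with 4 of 6 above background and *Retn* the brightest. The part of these cells in the relations of *Hk1* was not tested.

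The *Hk1* count was 193 without BXD43, 228 without BXD66, 245 without BXD61 and 323 without BXD69. It was 338 without BXD92, 342 without BXD99, 344 without BXD56, 346 without BXD65 and 836 without BXD75.

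*Pfkfb3* encodes an enzyme that makes fructose 2,6-bisphosphate, the activator of phosphofructokinase, and so speeds glycolysis. Its lowest value was 11.53 in BXD101, its median 12.04 and its highest 12.68 in BXD62, with a mean of 12.03 ± 0.30. Both parents were in the lower part of the range, C57BL/6J at 11.89 and DBA/2J at 11.76, and 22 BXD strains exceeded both. None of the other 9 genes passed with *Pfkfb3* by limma, beside 21 of 41154 transcripts (0.051%) and 3238 at an unadjusted p under 0.05. Of the 21, 14 rose and 7 fell, against 10 and 2 after centring each array on its median and 5 and 1 with quantile normalization. The nearest of the 9 was *Pck1*.

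The insulin receptor gene *Insr* had the largest r with *Pfkfb3*. *Insr* ran from 11.10 in BXD69 through a median of 11.57 to 11.85 in BXD62, the strain highest for *Pfkfb3*. The r was 0.73 and rho 0.76, both with a permutation p of 1e-05, and r was 0.67 without the 2 strains farthest from the median of *Pfkfb3*. The limma adjusted p was 0.04. *Myd88*, *Fam38a*, *Rnf40* and *Tomm70a* followed, with r from 0.68 to 0.71, and *Fam49a*, *Sgce*, *Fxyd2*, *Pdgfc* and *Pdgfd* fell, with r from -0.72 to -0.65. *Fxyd2*, at 7.71, was below background. *Pdgfc* and *Pdgfd* encode growth factors that act on mesenchymal cells. With the brown fat mean as a second covariate limma passed 0 transcripts with *Pfkfb3*, which ends all of these calls, and 3288 had an unadjusted p under 0.05. Without BXD65 and BXD97 it also passed 0, with 2960 at an unadjusted p under 0.05. Of 77 cell type markers 0 passed with *Pfkfb3* by limma. At an unadjusted p under 0.05 there were 3 of 6 macrophage and 3 of 10 brown fat genes, with median r of -0.35 and 0.27, beside 7.87% of all transcripts.

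All these adjusted p were between 0.04 and 0.05, and the count changed by more than 1.5 times when any of 27 strains was left out. It was 0 without BXD45, BXD55, BXD56, BXD68, BXD79, BXD84, BXD92 or BXD97. It was 1 without BXD62 or BXD101, 2 without BXD89, 3 without BXD87, 4 without BXD43, BXD50 or BXD69, 5 without BXD51 or BXD70, 6 without BXD103 and 7 without BXD66. It was 8 without BXD48 or BXD90, 10 without BXD61, BXD65, BXD96 or BXD98, 38 without BXD71 and 63 without BXD85.

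*Pdk2* encodes the most widely expressed of the pyruvate dehydrogenase kinases. It ran from 13.08, in BXD61 and BXD80, through a median of 13.26 to 13.52 in BXD49. DBA/2J, at 13.04, lay below all 35 BXD strains, and C57BL/6J had 13.17. Although its SD of 0.11 was small, 794 of 41154 transcripts passed with *Pdk2* (1.93%), 403 rising and 391 falling. The split was 822 and 462 after centring each array on its median and 185 and 114 with quantile normalization. None of the other 9 genes passed by limma, and 5904 transcripts had an unadjusted p under 0.05. *Pdk2* and *Pdk4* did not move together (r = 0.04).

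The 5 named genes that fell most closely as *Pdk2* rose were *Itgb1*, the shared beta subunit of many integrins, the tropomyosin gene *Tpm4*, *Stim2*, the natriuretic peptide clearance receptor gene *Npr3*, and *Aida*. For *Itgb1*, which ran from 11.11 in BXD45 to 11.79 in BXD97, r was -0.85, rho -0.85 and the adjusted p 1.75e-05. The r was -0.87 without the 2 strains farthest from the median of *Pdk2*. Those that rose were led by *Gm9899*, the casein kinase subunit gene *Csnk2b*, *Pskh1*, *Cisd1*, which encodes an iron-sulphur protein of the outer mitochondrial membrane, and *Gm19876*, at r from 0.76 to 0.80. Of 108 genes on the pathway lists 4 passed, each from another list, beside 1.93% of all transcripts: *Irs1* (r = 0.58), *Elovl6* (r = 0.56), *Ldhd* (r = 0.55) and *Pdp2* (r = 0.55) rose with *Pdk2*.

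Among the 185 list genes 4 passed with both *Hk1* and *Pdk2*: *Irs1* and *Pdp2* rose with *Pdk2* and fell with *Hk1*, and *Lep* and *Pecam1* did the opposite. Over all transcripts 1.3% passed with *Hk1* and 1.93% with *Pdk2*, and the share that passed with both was not counted. The r of *Hk1* and *Pdk2* was -0.49 (rho = -0.53, permutation p of 0.00314 and 0.00122), and -0.48 without BXD43 and BXD66. The limma adjusted p was 0.165 with *Hk1* and 0.0785 with *Pdk2* as the covariate, so the pair did not pass. It passed without BXD75, with adjusted p of 0.0462 and 0.0157 and r of -0.61.

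Of the 77 cell type markers, 1 rose with *Pdk2* and 3 fell, beside 1.93% of all transcripts that passed. At an unadjusted p under 0.05 there were 5 of 6 endothelial, 5 of 10 brown fat and 3 of 6 white fat genes, beside 14.35% of all transcripts. All 6 endothelial genes had a negative r, with a median of -0.52, and 2 passed, *Pecam1* (r = -0.62) and *Esam* (r = -0.59). *Lep* fell (r = -0.70), 1 of 6 white fat genes, and the potassium channel gene *Kcnk3* rose (r = 0.76), 1 of 10 brown fat genes, whose median r was 0.34. The white fat list was split, with 3 of 6 positive and a median r of -0.01, and its brightest gene, *Retn*, had r = 0.45 and did not pass. The brown fat mean ran from 12.07 in BXD97 to 13.17 in BXD87, its brightest gene was *Ucp1*, and 10 of 10 were above background. With that mean as a second covariate 380 transcripts passed with *Pdk2*. Of 6 macrophage genes 0 passed with *Pdk2* by limma, with a median r of -0.41, and 4 had an unadjusted p under 0.05, beside 14.35% of all transcripts. The part of endothelial cells, macrophages or white fat cells was not tested. The *Pdk2* count was 384 without BXD97, 486 without BXD61 and 528 without BXD48.

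With *Pdk4* as the covariate, 1 of the other 9 genes passed, *Slc2a4*, beside 40 of 41154 transcripts (0.0972%), 13 rising and 27 falling. The split was 23 and 30 after centring and 67 and 85 with quantile normalization. *Peg3* rose most closely with *Pdk4*. It spanned 10.44 in BXD68 through a median of 11.70 to 13.04 in BXD43, and its r was 0.73, its rho 0.58 and its adjusted p 0.00379. *Txnip* (r = 0.67), *Lgals4*, the protease gene *Pcsk5* and *Il6ra* followed, at adjusted p from 0.0439 to 0.0469. The transferrin receptor gene *Tfrc* fell most closely (r = -0.74, adjusted p = 0.00375), and ran from 8.66 in BXD43 to 10.86 in BXD95. *Grtp1*, *5730508B09Rik*, *Cspg4* and *Gypc* fell with r from -0.71 to -0.69.

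All 7 PPAR targets had a positive r with *Pdk4*, with a median of 0.50, and 1 passed, *Acot2* (r = 0.62), a mitochondrial acyl-CoA thioesterase. Over all transcripts 0.0972% passed. At an unadjusted p under 0.05 there were 4 of the 7, beside 6.58% of all transcripts. *Acot2* was lowest in BXD68 at 12.46, the strain lowest for *Pdk4*. From the lipogenesis list *Srebf1* (r = -0.64) and *Pnpla3* (r = -0.61) fell as *Pdk4* rose, 2 of 8. At an unadjusted p under 0.05 there were 3 of 8, and *Scd1* (r = 0.29) and *Fasn* (r = 0.01) had a positive r and did not pass. *Peg3*, *Txnip*, *Acot2*, *Srebf1* and *Pnpla3* thus passed with both *Pdk4* and *Slc2a4*, with opposite signs. The r of *Slc2a4* and *Pdk4* was itself -0.68. Over all transcripts 0.0972% passed with *Pdk4* and 0.425% with *Slc2a4*, and the share that passed with both was not counted.

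The *Pdk4* count was moved by 21 strains. It was 1 without BXD68, 4 without BXD101, 5 without BXD69, 6 without BXD43, 8 without BXD87, 11 without BXD80 or BXD96, 12 without BXD64 and 13 without BXD50 or BXD51. It was 14 without BXD71, 15 without BXD92 or BXD103, 17 without BXD62 or BXD70, 18 without BXD83, 22 without BXD81, 23 without BXD48, 25 without BXD89, and 26 without BXD85 or BXD97.

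*Ldha* encodes the lactate dehydrogenase subunit common in glycolytic tissue. It ran from 9.96 in BXD83 through a median of 10.37 to 10.72 in BXD87, with 10.63 in C57BL/6J and 10.41 in DBA/2J. BXD83, highest for *Pdk4*, was lowest for *Ldha*, and BXD87 was highest for *Ldha*, *Slc2a4* and *Hk2*. None of the other 9 genes passed with *Ldha* by limma, beside 5 of 41154 transcripts (0.0121%) and 3449 at an unadjusted p under 0.05. Of the 5, 2 rose and 3 fell, against 7 and 6 with quantile normalization. After centring each array on its median limma passed 0 transcripts with *Ldha*, which ends these calls, and 2856 had an unadjusted p under 0.05. *Ldha* and *Pdk4* had r of -0.53 (permutation p = 0.00122, limma adjusted p of 0.277 and 0.318), and *Slc2a4* and *Ldha* had r of 0.48 (permutation p = 0.00405, limma adjusted p of 0.273 and 0.271).

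The named genes among the 5 included *Alg14*, which rose with *Ldha*, and *Tbc1d17* and *4931406P16Rik*, which fell, with r between 0.67 and 0.71 in size and an adjusted p of 0.0435 for each. This count was moved by 26 strains. It was 0 without BXD45, BXD50, BXD51, BXD75, BXD85, BXD87, BXD92, BXD99, BXD101 or BXD103, 1 without BXD56, BXD70, BXD81 or BXD83, and 2 without BXD43. It was 3 without BXD62, BXD65, BXD71 or BXD80, 8 without BXD96 or BXD97, 11 without BXD64 or BXD68, 13 without BXD95, 14 without BXD90 and 19 without BXD84.

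*Ldhb* encodes the subunit common in oxidative tissue. It ran from 12.24 in BXD80 through a median of 12.54 to 12.79 in BXD81, and the parents, C57BL/6J at 12.76 and DBA/2J at 12.36, enclosed 32 of the 35 BXD strains. With *Ldhb* as the covariate limma passed 0 of 41154 transcripts (0%) and so 0 of the other 9 genes, and 2742 transcripts had an unadjusted p under 0.05. The largest r was that of *Ralgapa2*, which encodes a subunit of a GTPase-activating complex for Ral proteins (r = 0.68, adjusted p = 0.232). The smallest was that of *Cxcr6* (r = -0.61), which at 6.86 was below background. Without BXD61 the count was 1. *Ldha* and *Ldhb* did not pass as a pair, with r of 0.18.

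*Pck1* encodes the enzyme that commits carbon to glycerol phosphate in fat tissue, and to glucose in liver. It ran from 14.75 in BXD101 through a median of 15.04 to 15.32 in BXD62. C57BL/6J, at 14.50, lay below all 35 BXD strains and DBA/2J, at 14.95, below 26 of them. The liver mean was 7.35 in C57BL/6J, below that of DBA/2J, and its part in this parental difference was not tested. None of the other 9 genes passed with *Pck1* by limma, beside 60 of 41154 transcripts (0.146%), 31 rising and 29 falling, and 3406 at an unadjusted p under 0.05. After centring, 66 rose and 40 fell.

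The pairs of *Pck1* with *Pfkfb3*, *Pdk4* and *Pdk2* came nearest. BXD62 was highest for both *Pck1* and *Pfkfb3* and BXD101 lowest for both. Their r was 0.59 (n = 35, 95% interval 0.33 to 0.77, permutation p = 0.00023) and rho 0.52 (permutation p = 0.00155), and r was 0.48 without these 2 strains. The limma adjusted p was 0.119 with *Pfkfb3* and 0.0597 with *Pck1* as the covariate. *Pdk4* and *Pck1* had r of 0.60 (permutation p = 0.00017) and rho of 0.49 (permutation p = 0.00319), with limma adjusted p of 0.129 and 0.167. BXD62 was second for *Pdk4* and BXD101 second from the bottom. *Pdk2* and *Pck1* had r of 0.54 (permutation p = 0.00072) and rho of 0.59 (permutation p = 0.00025), with limma adjusted p of 0.0562 and 0.241. Without the 2 strains farthest from the median of the first gene, r was 0.56 for *Pdk4* and 0.48 for *Pdk2*.

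*Sik2*, which encodes a salt-inducible kinase, and *Insr* rose most closely with *Pck1*, at r of 0.76 and 0.75 and adjusted p of 0.0169 and 0.00907. *Osbpl11*, the lipid synthesis gene *Agpat6* and the cytochrome P450 reductase gene *Por* followed, with r of 0.72 each. *Insr*, *Sik2*, *Osbpl11* and *Agpat6* were all lowest in BXD69. *Anxa2*, *Tbc1d19*, *Gas2l3*, *Mrps6* and *Sgce* fell as *Pck1* rose, with r from -0.71 to -0.68. *Insr* and *Sgce* therefore passed with both *Pck1* and *Pfkfb3*, each with the same sign. The r of *Pck1* and *Pfkfb3* was itself 0.59. Over all transcripts 0.146% passed with *Pck1* and 0.051% with *Pfkfb3*, and the share that passed with both was not counted. All 7 PPAR targets had a positive r with *Pck1*, with a median of 0.42, and 1 passed, *Ucp3* (r = 0.66). Of the 7, 4 had an unadjusted p under 0.05, beside 8.28% of all transcripts. Of 77 cell type markers 0 passed with *Pck1* by limma. At an unadjusted p under 0.05 there were 4 of 6 macrophage, 3 of 6 white fat and 3 of 10 brown fat genes, beside 8.28% of all transcripts, with median r of -0.34, 0.02 and 0.16. With the brown fat mean as a second covariate 138 transcripts passed with *Pck1*. The part of these cells was not tested further. The count was 10 without BXD69, 23 without BXD43, 28 without BXD68, 29 without BXD97, 35 without BXD75 and 108 without BXD79.

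Among the 45 pairs of the 10 genes, 26 had a positive r, and 2 passed the limma threshold in both directions, *Slc2a4* with *Hk2* and *Slc2a4* with *Pdk4*. At a permutation p under 0.05 for r, not adjusted, there were 15. *Hk2* and *Pdk4* (r = -0.54, rho = -0.54, permutation p of 0.00073 and 0.00113) did not pass, with limma adjusted p of 0.388 and 0.18. Nor did *Slc2a4* and *Ldhb* (r = 0.42, limma adjusted p of 0.439 and 0.601) or *Hk2* and *Ldha* (r = 0.42, limma adjusted p of 0.537 and 0.392). Without BXD87 the r of *Hk2* and *Ldha* was 0.25.

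**Figure D3:**
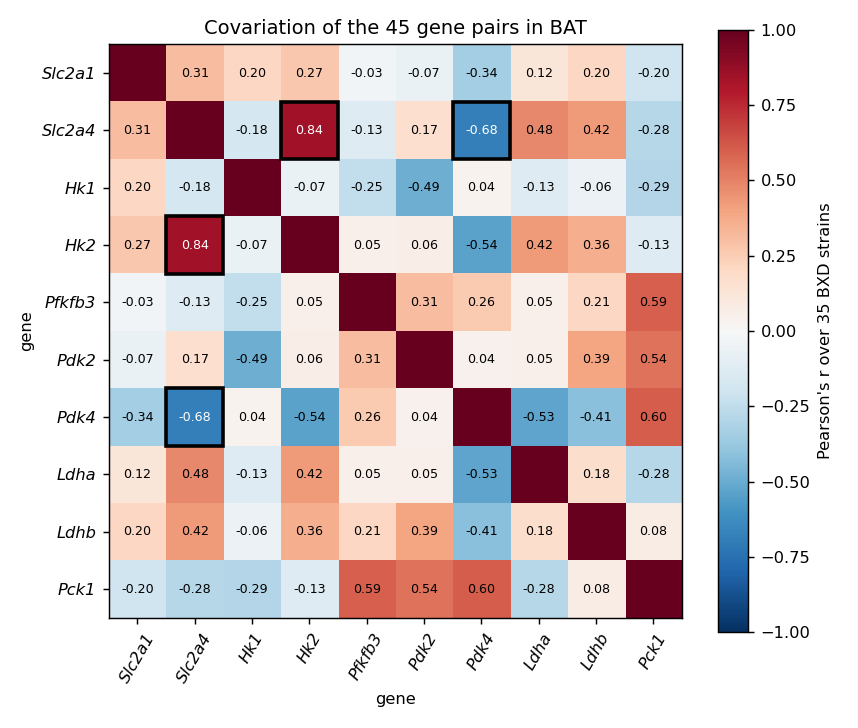
Pearson's r over the 35 BXD strains for each of the 45 pairs of the 10 genes, with genes on both axes and colour giving r from -1 (blue) to 1 (red). Boxes mark the 2 pairs that passed the limma threshold in both directions, *Slc2a4* with *Hk2* (0.84) and with *Pdk4* (-0.68).

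Skeletal muscle, which uses several of the 10 genes, varied widely among the samples. The mean of 16 muscle genes ran from 9.69 in BXD65 through a median of 12.09 to 12.99 in BXD97, its brightest gene was *Atp2a1*, and 16 of 16 were above background. The median r of these 16 genes with the members lay between -0.25 and 0.15, and 0 of 16 passed by limma with any of the 10. All 16 had a negative r with *Hk1*, with a median of -0.25. All 16 were also negative with *Pfkfb3*, *Pdk2*, *Ldhb* and *Pck1*, with median r of -0.12, -0.10, -0.23 and -0.04. They were positive with *Hk2*, with a median of 0.15. Most of the 16 were lowest in BXD65 and highest in BXD97, so their shared signs are not 16 separate observations. With the muscle mean as a second covariate 1119 transcripts passed with *Hk1* in place of 537. At an unadjusted p under 0.05, 1 of 16 passed with *Hk1*, beside 14.31% of all transcripts, and 0 with each of the other 9. With the muscle mean as a covariate, r was 0.85 for *Slc2a4* and *Hk2* and -0.68 for *Slc2a4* and *Pdk4*. Without BXD65 and BXD97 the latter pair had r of -0.68 and a limma adjusted p of 0.0505 and 0.0265.

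Of the brown fat list 0 of 10 passed by limma with *Ldha*, *Ldhb* or *Hk2*, and 4, 4 and 3 had an unadjusted p under 0.05. Of the other cell lists, blood, lymphocytes, peripheral nerve and smooth muscle had 0 genes past the limma threshold with any of the 10, among 4, 6, 6 and 5 found. So had the lists of 12 clock genes, 3 other hexokinases and 3 other PFKFB enzymes. The largest counts at an unadjusted p under 0.05 were 2 of 4 blood genes with *Ldha*, 2 of 6 lymphocyte genes with *Ldhb*, 1 of 6 nerve genes with *Slc2a1*, *Hk2*, *Pdk2* or *Ldhb*, and 2 of 5 smooth muscle genes with *Hk1* or *Pdk2*. They were 5 of 12 clock genes with *Pdk2* (4 each with *Ldha* and *Pck1*), 1 of 3 hexokinases with *Slc2a1* or *Hk1*, and 2 of 3 PFKFB enzymes with *Hk1*. The shares over all transcripts were 14.31% for *Hk1*, 14.35% for *Pdk2*, 8.38% for *Ldha*, 8.28% for *Pck1*, 7.38% for *Slc2a1*, 7.15% for *Hk2* and 6.66% for *Ldhb*.

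Promoters are shown for 3 genes: *Hk2* and *Pdk4*, the partners of *Slc2a4* in the pairs that passed, and *Pck1*, whose r with *Pdk4* was 0.60. They are from RefSeq, assembly GRCm38.p6, which held 13 starts for 9 of the 10 genes, all but *Slc2a4*. The 250 bases before each start were searched on both strands for CACGTG, the E-box bound by many basic helix-loop-helix factors and the same on both strands, and for TGACGT, the core of the cyclic AMP response element, which can overlap an E-box by 2 bases. The E-box was in 6.02% and the core in 6.47% of all 32851 windows. Among the 13 starts, 3 had an E-box, 1 each of *Pfkfb3*, *Ldha* and *Pdk2*. The core was found at 4 starts, 1 each of *Pck1*, *Hk2*, *Pfkfb3* and *Ldha*. Each sequence gives the 150 bases before the start, 5′ to 3′ on the gene's strand, with the core or its reverse complement ACGTCA in capitals. A match describes letters only. *Hk2* is at chr6:82774455-82774604 (minus strand), *Pck1* at chr2:173152923-173153072 (plus strand) and *Pdk4* at chr6:5496279-5496428 (minus strand), and *Pdk4* has no match.
Hk2: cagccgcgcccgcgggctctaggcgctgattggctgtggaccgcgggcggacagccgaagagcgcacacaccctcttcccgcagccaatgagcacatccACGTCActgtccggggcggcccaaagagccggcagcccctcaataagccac
Pck1: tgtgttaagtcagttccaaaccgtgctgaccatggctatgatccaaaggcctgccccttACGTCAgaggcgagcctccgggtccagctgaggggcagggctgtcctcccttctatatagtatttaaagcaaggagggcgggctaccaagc
Pdk4: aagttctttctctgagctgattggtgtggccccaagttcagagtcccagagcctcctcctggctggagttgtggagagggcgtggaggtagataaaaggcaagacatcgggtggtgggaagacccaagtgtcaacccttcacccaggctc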

How the data were processed

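RNA of about 5 mice per strain was pooled evenly, 100 ng were amplified and 5500 ng of cDNA were labelled for Affymetrix arrays, and the submitters' processing notes name Affymetrix Expression Console. The deposited values are scores, made by the authors so that every array has mean 8 and SD 2. The log base, the summary method and the background correction are not given in the sources used here. Of 41345 probe sets 190 array controls were left out, which leaves 41155. Precision is limited by how many arrays there are and by the background, since arrays give no depth. Correlations between arrays were 0.968 to 0.987.

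Each gene's value was a continuous covariate in limma 3.58.1 (lmFit and eBayes, R 4.3.3) over all probe sets except its own, in the 35 BXD strains, with Benjamini-Hochberg adjustment and a threshold of 0.05. A pair passed where both directions did. Pearson's r and Spearman's rho had two-sided tests of 100000 permutations, and the 95% intervals of r are Fisher's. The limma step and the permutation test were tested on simulated data. The genes and lists were chosen with earlier results of these data known. Of 189 list genes 185 were found, 5 by an older symbol. Genes named are the 10 genes, the list genes, and per fit the 5 named genes with the largest and the 5 with the smallest r past the threshold, or 1 each way where none passed. Of these, 2 are counted but not reported here by name. The lists were 10 of cell types (skeletal muscle, liver, brown fat, white fat, endothelium, peripheral nerve, blood, lymphocytes, macrophages, smooth muscle) and 13 of pathways. Alternatives covered the parents, scaling, covariates, ranks, strains left out, probe sets and dim probe sets. Tables and permutations were made in Python 3.11.15 with pandas 2.3.3, scipy 1.17.1 and numpy 2.4.6, and plots with matplotlib 3.10.9.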

Additional observations from a re-analysis of the deposited data

How the results depend on the processing

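The means of all 10 genes over the BXD strains were above the stricter 99% background limit of 8.82, while *Hk1* in BXD43, at 8.69, was not. The direction of r held for each of the 15 pairs with a permutation p under 0.05 in all alternatives, and the call of *Slc2a4* with *Hk2* held in all of them. The number of pairs passing was 4 with both parents included, when *Hk2* with *Pdk4* (r = -0.66) and *Pdk4* with *Pck1* (r = 0.72) also passed. It was 1 on ranks, after centring each array on its median, with the brown fat mean as a covariate, without the 2 farthest strains, and without BXD65 and BXD97, when *Slc2a4* with *Pdk4* did not pass. With each strain left out in turn it was 1 to 3. The causes of these and the following changes were not tested, except that fewer probe sets tested or fewer strains change the adjustment by construction.

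Counts of transcripts moved more than pairs did. With both parents included they were 0 for *Slc2a1*, 347 for *Slc2a4*, 146 for *Hk2*, 460 for *Pdk2*, 191 for *Pdk4*, 73 for *Ldha*, 1 for *Ldhb* and 102 for *Pck1*. With quantile normalization they were 6 for *Pfkfb3*, 299 for *Pdk2*, 152 for *Pdk4*, 13 for *Ldha* and 110 for *Pck1*. After centring on the median they were 0 for *Slc2a1*, 317 for *Hk1*, 12 for *Pfkfb3*, 1284 for *Pdk2*, 0 for *Ldha*, 2 for *Ldhb* and 106 for *Pck1*. With the muscle mean as a covariate they were 1119 for *Hk1* and 18 for *Ldha*. With the brown fat mean they were 9 for *Hk2*, 0 for *Pfkfb3*, 380 for *Pdk2*, 26 for *Pdk4*, 0 for *Ldha* and 138 for *Pck1*. On ranks they were 0 for *Slc2a1*, 96 for *Slc2a4*, 350 for *Hk1*, 1 for *Hk2*, 1 for *Pdk4*, 0 for *Ldha* and 22 for *Pck1*. Without the 2 farthest strains they were 0 for *Slc2a1*, 49 for *Slc2a4*, 46 for *Hk1*, 1 for *Hk2*, 12 for *Pfkfb3*, 4 for *Pdk4*, 0 for *Ldha* and 93 for *Pck1*. Without BXD70 they were 5 for *Pfkfb3*, 17 for *Pdk4* and 1 for *Ldha*. Without BXD65 and BXD97 they were 0 for *Pfkfb3*, 363 for *Pdk2*, 0 for *Ldha* and 16 for *Pck1*. With the mean of both *Slc2a1* probe sets its count was 0. With dim probe sets left out they were 948 for *Hk1*, 69 for *Pfkfb3*, 1341 for *Pdk2*, 75 for *Pdk4*, 32 for *Ldha* and 148 for *Pck1*. With each strain left out in turn they ran from 0 to 2 for *Slc2a1*, 96 to 200 for *Slc2a4*, 193 to 836 for *Hk1*, 1 to 47 for *Hk2*, 0 to 63 for *Pfkfb3*, 384 to 1182 for *Pdk2*, 1 to 57 for *Pdk4*, 0 to 19 for *Ldha*, 0 to 1 for *Ldhb* and 10 to 108 for *Pck1*. Where a count is 0, the tool was limma, and the counts at an unadjusted p under 0.05 of the fits on 35 strains were 3037 for *Slc2a1*, 3238 for *Pfkfb3*, 3449 for *Ldha* and 2742 for *Ldhb*.

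Of the ranges, 69 alternatives stayed within 1 SD of the value given and 11 did not. All 30 alternatives of the parental differences did. No paired analysis was possible because each strain had 1 array and no groups were compared.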
